A study of Mus musculus with 6 samples.

Results

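Integrins, laminins and the other basement membrane genes of the embryonic mouse heart were taken as a list of 33 genes, chosen by name: 12 integrin alpha chains, 6 integrin beta chains, 8 laminin chains, 4 linker and proteoglycan genes (Nid1, Nid2, Hspg2 and Agrn) and 3 adhesive glycoproteins (Fn1, Vtn and Npnt). Of these, 32 matched 1 entry each among the 23290 entries of the authors' deposited table, and Itga10 was not analysed here. RNA came from whole hearts at E10.5, with 3 control hearts of genotype Nkx2-5+/+,Casz1f/+ and 3 mutant hearts of genotype Nkx2-5Cre/+,Casz1f/f, all on a C57BL/6 background and each from a separate embryo. The mutants carried 2 floxed copies of Casz1, a zinc finger transcription factor, and Cre recombinase at 1 Nkx2-5 allele. The controls carried 1 floxed copy and no Cre, so the genotypes differed at Casz1 and at Nkx2-5 together. Nkx2-5 is active in cardiac progenitors and heart muscle, so heart cells outside its domain keep their floxed alleles intact.

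Integrins are cell surface receptors made of 1 alpha and 1 beta chain, and the alpha chain largely sets which matrix protein is bound. Laminins are trimers of an alpha, a beta and a gamma chain that assemble into the sheet at the base of the basement membrane. Nidogens join that sheet to the collagen IV network, and perlecan (Hspg2) and agrin are heparan sulfate proteoglycans bound to it. In the embryonic heart a basement membrane lies under the endocardium and the epicardium and around the heart muscle cells. The comparison asked which of these genes differed when Casz1 was mutated, whether Itga7 was the only integrin to change, and whether the laminin chains changed with it.

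Levels are given as FPKM, fragments scaled by transcript length and library size, so genes can be compared with each other. The table holds 1 pooled FPKM value per genotype and none per heart, so the spread between hearts and the depth of each library are unknown here. All FPKM values, log2 fold changes (mutant over control), p-values and q-values below are those of the authors' deposited table, whose test rests on 3 hearts per genotype. The standard error (SE) and the 95% interval of a log2 fold change are those implied by the deposited test statistic. A gene is said to have risen or fallen only at the authors' q under 0.05. Casz1 read 6.61 FPKM in controls and 4.68 in mutants (log2 -0.50, SE 0.306, q = 1.00). The labels do not say which exons were floxed, so a value over the whole gene is a weak check of the deletion. Nkx2-5 read 143.0 and 82.9 FPKM (log2 -0.79, SE 0.295, q = 0.536). The 13 cardiomyocyte markers summed to 24975 FPKM in controls and 24383 in mutants. Of these, 0 were called, 3 were above 0 and 10 below, with a median log2 fold change of -0.20. The sum holds opposite differences, with Myl2 at 5549 and 3942 FPKM and Myl7 at 5080 and 7496 FPKM. Nppa read 1755 and 888 FPKM (the authors' unadjusted p = 0.0123, q = 0.746). Lists of 9 endothelial, 8 epicardial, 7 cushion and 7 neural markers gave 0 calls each, with at most 1 unadjusted p under 0.05 in a list.

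Itga7 rose in the mutant hearts and was the only gene of the list that passed the authors' test. Of 31 tested members 1 rose and 0 fell, where 0.422% of all 15387 tested entries were called, 0.305% higher and 0.117% lower. At an unadjusted p under 0.05 the count was also 1 of 31, beside 3.17% of all tested entries. The other 30 tested members had unadjusted p from 0.0727 upwards, and Itgb6 was too low for a test. A change of at least 1.5-fold upwards was seen in 2 of the 27 members that were tested and had at least 1 FPKM in either genotype, Itga7 and Itgb8, against 2.50% of the 12150 entries under the same filter. No such member was at least 1.5-fold lower, against 2.11% of those entries. Itga7 and Itgb8 both entered the 27 only through their mutant value. The median log2 fold change of the 27 was 0.03, and that of the 12150 entries was -0.02.

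**Figure D1:**
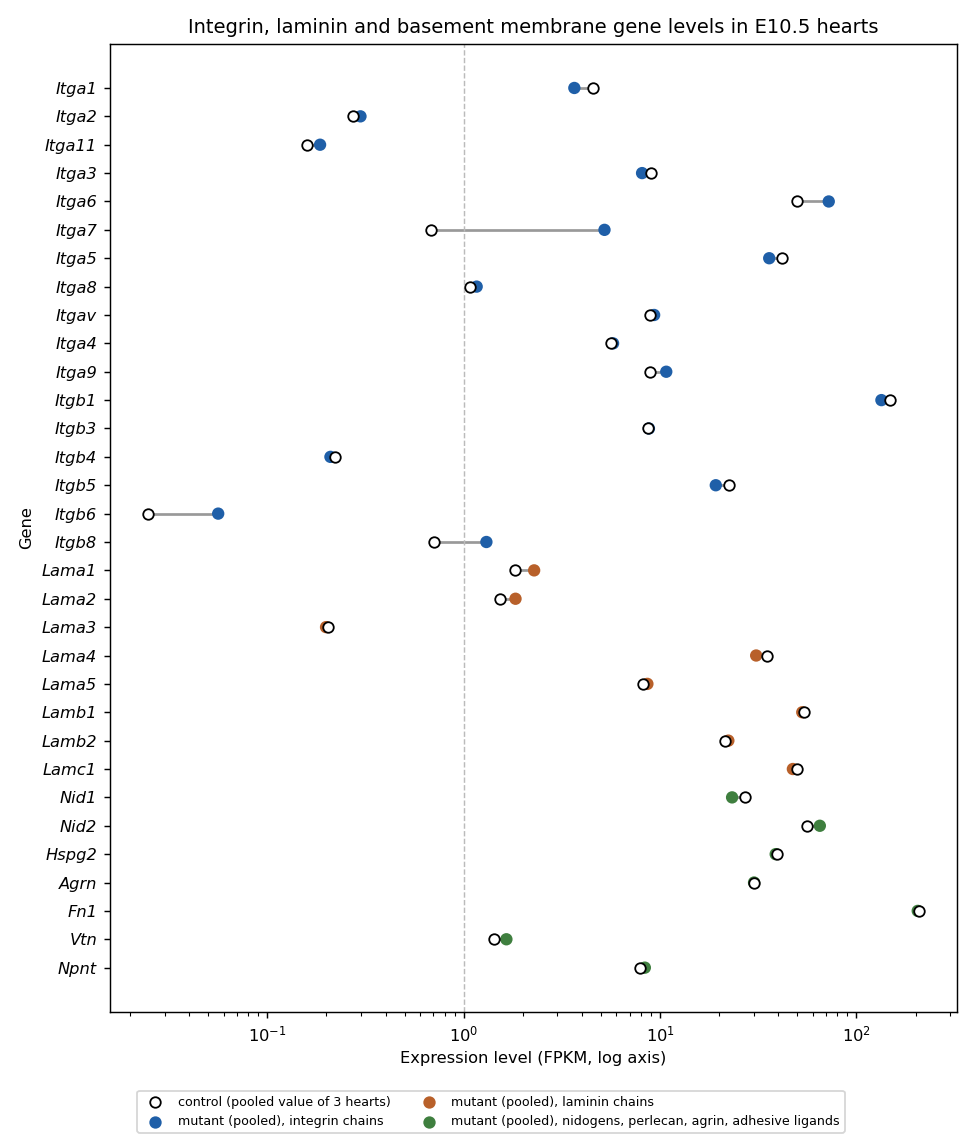
Expression level in FPKM (log axis) of the 32 genes with an entry, with control hearts as open circles and mutant hearts as filled circles, 1 pooled value each. Itga7 moves from 0.684 to 5.21 FPKM across the dashed line at 1 FPKM, while most pairs of circles touch or overlap.

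Itga7 encodes the alpha chain of the laminin receptor found on skeletal, cardiac and smooth muscle. Its level was 0.684 FPKM in controls and 5.21 in mutants. The mutant level was 7.62-fold that of controls (log2 2.93, SE 0.399, 95% interval 2.15 to 3.71, q = 6.17e-10). Only 18 of the 12150 entries with at least 1 FPKM (0.148%) had a larger absolute log2 fold change. With 1 FPKM added to both values the log2 fold change was 1.88. Even in the mutants Itga7 remained a gene of modest level, at 3.41% of the summed FPKM of the 11 alpha chains, up from 0.523% in controls.

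Itga7 lies on chromosome 10 from 128933421 to 128958286 in the RefSeq annotation of GRCm38, the assembly that mm10 names. The deposited locus runs from 128933813 to 128960988 and also covers Mettl7b, whose annotated end overlaps that of Itga7. Mettl7b had its own entry, at 0.0425 FPKM in controls and 0.109 in mutants, far below Itga7 (log2 1.36, SE 4.31, the authors' p = 0.753). The neighbours on the other side, Bloc1s1, Rdh5 and Cd63, had log2 fold changes of 0.11, 0.18 and 0.05. None of these 4 neighbours was called. Whether reads were counted by strand is not stated in the labels or the file.

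Markers of smooth muscle and of foregut epithelium also rose in part. All 10 tested markers of foregut and pharyngeal epithelium were higher in the mutants and 7 rose, with the list summing to 4.16 FPKM in controls and 21.6 in mutants. Among them was the epithelial adhesion gene Epcam, from 0.971 to 4.42 FPKM. Over all 15387 tested entries 0.305% were called higher. Of 6 tested smooth muscle markers 2 rose, Actg2 from 1.37 to 7.72 FPKM and Lmod1 from 4.12 to 14.2 FPKM, and the summed level of the list was 498 FPKM in controls and 909 in mutants. Tagln supplied most of that sum, at 333 and 767 FPKM (q = 0.411). Myh11 read 0.326 and 0.931 FPKM (log2 1.52, q = 0.322). Of the 6 tested markers 4 were above 0 and 2 below, Cnn1 at 132 and 96.0 FPKM and Smtn at 27.0 and 23.9 FPKM. Acta2 held too many fragments for the authors' test and was left out of the sum. Its deposited 0 FPKM in mutants came with that status and is not read as a level here. No other marker of either list was at 0 in either genotype. Their part in the Itga7 result was not tested, and with pooled values it is unknown whether the same hearts were high in all of them. In whole-heart RNA, more cells of a type and more RNA per cell cannot be told apart.

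Itga6 and Itga3, which encode the other alpha chains that bind laminin, did not pass the test. Itga6 was the most abundant alpha chain, at 49.7 FPKM in controls and 72.3 in mutants (log2 0.54, SE 0.325, 95% interval -0.10 to 1.18, the authors' p = 0.0964). This was the third highest fold change among the 31 tested members, and its interval reaches from no change to more than 2-fold. Itga3 read 8.96 and 8.10 FPKM (log2 -0.14, SE 0.288). The log2 fold change of Itga7 exceeded that of Itga6 by 2.39 (95% interval 1.38 to 3.40) and that of Itga3 by 3.08 (2.11 to 4.04), taking the errors of the genes as independent. The 3 genes together summed to 59.3 FPKM in controls and 85.6 in mutants. Itga6 held 83.8% of that sum in controls and 84.4% in mutants, and Itga7 held 1.15% and 6.09%.

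**Figure D2:**
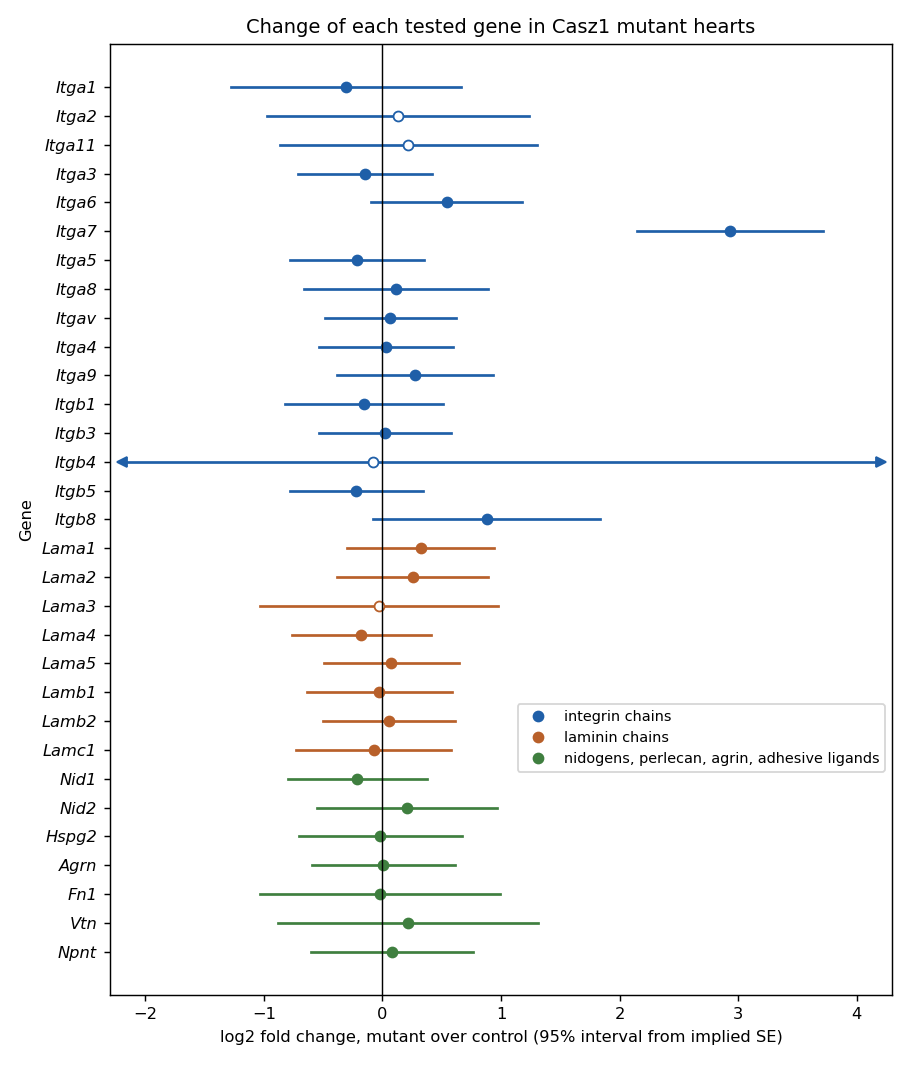
Log2 fold change of the 31 tested genes, mutant over control, with 95% intervals from the implied SE. Open circles are genes under 1 FPKM in both genotypes, and arrowheads mark the Itgb4 interval, which runs off the axis. The Itga7 interval, from 2.15 to 3.71, is the only one that excludes 0.

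The integrin alpha chains that bind other ligands gave no calls, and each had a smaller absolute log2 fold change than Itga6, though not all a smaller one than Itga3. Itga5, the main fibronectin receptor chain, was the second most abundant at 41.8 and 36.0 FPKM (log2 -0.22, SE 0.288). Itgav, which pairs with several beta chains to bind vitronectin and fibronectin, read 8.91 and 9.33 FPKM. Itga8, a receptor chain for nephronectin, read 1.07 and 1.16 FPKM. All 3 fold changes were smaller than their SE. The same held for Itga9, which read 8.90 FPKM in controls and 10.8 in mutants (log2 0.27, SE 0.336), and for Itga4, whose receptor binds fibronectin and Vcam1, at 5.64 and 5.76 FPKM. Collagen-binding chains were low in both genotypes. Itga1 read 4.53 and 3.66 FPKM (log2 -0.31, SE 0.495), the lowest fold change of the list. Itga2 read 0.273 and 0.298 FPKM, and Itga11 read 0.159 and 0.186 FPKM.

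Among the beta chains, Itgb1 was by far the most abundant, and none of 5 tested chains was called. Itgb1, the partner of Itga7 and of most other alpha chains listed, read 149 FPKM in controls and 134 in mutants (log2 -0.15, SE 0.340, 95% interval -0.82 to 0.51). It supplied 82.3% of the summed beta chain FPKM in controls and 81.9% in mutants. Itgb5 and Itgb3, partners of Itgav, read 22.4 and 19.2 FPKM and 8.64 and 8.77 FPKM. Itgb8, whose dimer with Itgav activates latent TGF-beta, read 0.710 FPKM in controls and 1.30 in mutants (log2 0.88, SE 0.489, 95% interval -0.08 to 1.84, the authors' p = 0.0727). It had the second highest fold change among the 31 tested members, and with 1 FPKM added to both values it no longer reached 1.5-fold. The epithelial chains were low in both genotypes. Itgb4, of hemidesmosomes, read 0.222 and 0.210 FPKM with an SE of 5.82, and Itgb6 read 0.0248 and 0.0562 FPKM.

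No laminin chain passed the test beside Itga7. None of the 8 was called, and none had an unadjusted p under 0.05, with 0.311 as the smallest. For the 7 chains with at least 1 FPKM, log2 fold changes ran from -0.18 to 0.32, and the 95% intervals of all 7 lay within a 2-fold change in either direction. The log2 fold change of Itga7 exceeded those of the 8 laminin chains by 2.61 to 3.11, and the lowest bound of these differences was 1.61. Over all 30 other tested members the difference was 2.05 to 3.24. Its 95% interval lay above 0 for 29 of them, the exception being Itgb4 with its wide error. Itga7 was singled out here because it had the highest value, so these intervals are not a test. They give the error of each difference, taking the errors of the genes as independent.

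Lama4, an alpha chain typical of vessels and the early heart, made up most of the laminin alpha FPKM. It read 34.9 FPKM in controls and 30.9 in mutants (log2 -0.18, SE 0.298). Lama5, the broadly expressed alpha chain of mature basement membranes, read 8.18 and 8.62 FPKM. Lama2, the alpha chain of the muscle laminin that the Itga7 receptor binds, stood at only 1.54 FPKM in controls and 1.84 in mutants (log2 0.25, SE 0.326). Lama1, of the earliest embryonic basement membranes, read 1.83 and 2.28 FPKM (log2 0.32, SE 0.317), and Lama3, of epithelia, read 0.203 and 0.199 FPKM. Lama1 and Lama2 thus lay slightly above 0 and Lama4 slightly below, and the 95% interval of each includes 0.

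The beta and gamma chains read nearly the same in both genotypes. Lamb1, the main beta chain, read 54.0 FPKM in controls and 53.0 in mutants (log2 -0.03, SE 0.311), and Lamb2 read 21.5 and 22.3 FPKM. Lamc1, the gamma chain of most laminins, read 50.02 and 47.5 FPKM (log2 -0.08, SE 0.332). The 5 alpha chains summed to 46.7 FPKM in controls and 43.8 FPKM in mutants, close to the Lamc1 level in each genotype, while the 2 beta chains summed to 75.5 and 75.3 FPKM. These are transcript levels and give no count of assembled trimers.

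**Figure D3:**
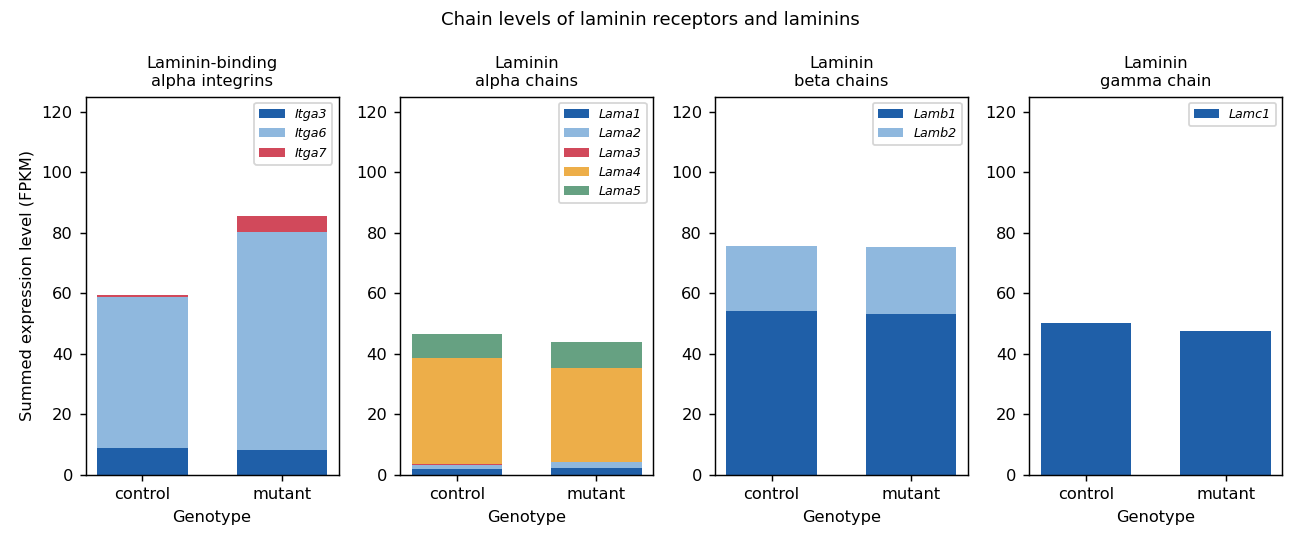
Stacked bars of FPKM (axis from 0) for the laminin-binding integrin alpha chains and for the laminin alpha, beta and gamma chains in control and mutant hearts, 1 pooled value per genotype and no error bars. The receptor bar is 59.3 FPKM high in controls and 85.6 FPKM in mutants, mostly Itga6, and the 3 laminin bars are nearly as high in mutants as in controls (43.8, 75.3 and 47.5 FPKM against 46.7, 75.5 and 50.02 FPKM).

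The linker and proteoglycan genes were abundant and gave 0 calls among 4. Nid2 read 56.3 FPKM in controls and 65.1 in mutants (log2 0.21, SE 0.387), and Nid1 read 26.9 and 23.3 FPKM (log2 -0.21, SE 0.300), so the nidogens lay on opposite sides of 0 within their errors. Hspg2, which encodes perlecan, read 39.3 and 38.8 FPKM. Agrn, whose product also binds dystroglycan, read 30.0 and 30.1 FPKM. The 95% intervals of all 4 lay within a 2-fold change.

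The adhesive ligands also gave 0 calls, among 3. Fn1, fibronectin, was the most abundant gene of the list at 208 FPKM in controls and 205 in mutants (log2 -0.02, SE 0.517). Npnt, nephronectin, read 7.92 and 8.37 FPKM, and Vtn, vitronectin, read 1.42 and 1.65 FPKM (log2 0.22, SE 0.560). The wide errors of Fn1 and Vtn leave their intervals at -1.03 to 0.99 and -0.88 to 1.31.

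**Figure D4:**
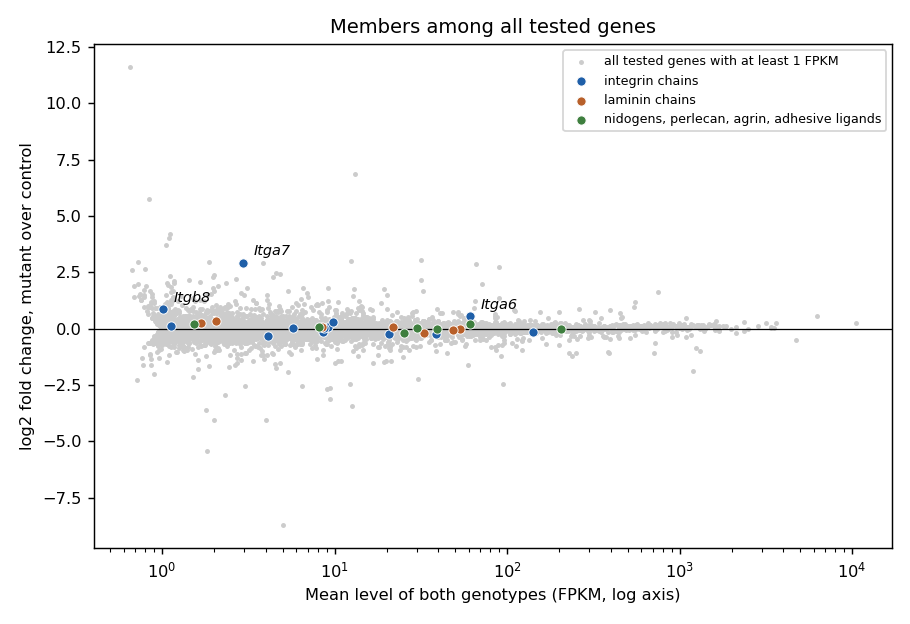
Log2 fold change against the mean FPKM of both genotypes (log axis) for the 12150 tested entries with at least 1 FPKM in either genotype (grey) and the 27 members among them (coloured). Itga7, at log2 2.93, stands above the grey band, Itgb8 (0.88) and Itga6 (0.54) lie near its upper edge, and the other members lie between -0.31 and 0.32.

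Genes that work with these members were read from 5 further lists. Integrin and laminin chains outside the main list gave 0 calls among 9 tested and 0 with an unadjusted p under 0.05. All 6 tested integrin chains of blood cells were below 0, including the platelet chain Itga2b at 12.0 and 8.003 FPKM (log2 -0.58, SE 0.297, the authors' p = 0.0504) and the leukocyte chain Itgb2 at 1.01 and 0.658 FPKM. The other tested blood cell chains, Itgae, Itgal, Itgam and Itgb7, were under 1 FPKM in both genotypes, so their signs are poorly measured. The epithelial laminin chain Lamb3 read 0.854 and 1.20 FPKM (log2 0.49, SE 0.532). Beside them the macrophage markers summed to 21.4 FPKM in controls and 5.81 in mutants, mostly through Lyz2, which fell from 16.9 to 1.91 FPKM. The other 6 macrophage markers summed to 4.56 and 3.90 FPKM, with 0 of 5 tested called. Platelet markers, a list that itself contains Itga2b, summed to 93.2 and 49.5 FPKM, with 0 of 6 called and 2 at an unadjusted p under 0.05. The part of these cells in the blood integrin values was not tested.

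Of 17 tested genes for other basement membrane proteins, 1 rose and 0 fell, beside 0.422% of all tested entries called in either direction. At an unadjusted p under 0.05 the count was 3 of 17, beside 3.17% of all tested entries. Smoc2, a calcium-binding matrix protein of the Sparc family, rose from 3.66 to 9.19 FPKM (log2 1.33, q = 0.0218, SE 0.335). Frem2, which anchors epithelia to the matrix, read 3.14 and 6.32 FPKM (log2 1.01, SE 0.306, the authors' unadjusted p = 0.000953, q = 0.142). Col15a1 read 0.284 and 0.656 FPKM (log2 1.21, SE 0.524, the authors' unadjusted p = 0.0215). The list median over 15 genes with at least 1 FPKM was -0.02, the same as over all such entries. Foregut and pharyngeal epithelial markers were higher beside these genes as given above, and their part was not tested.

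The proteins that join integrins to actin were not called. Among 23 tested cytoplasmic partners 0 passed and 1 had an unadjusted p under 0.05, Fermt1, the kindlin of epithelia, at 0.0722 and 0.252 FPKM (log2 1.81, SE 0.755, q = 0.873). Their median was -0.05. The other laminin receptors gave 0 calls and 0 unadjusted p under 0.05 among 13, with Rpsa at 872 and 954 FPKM, Bcam at 102 and 93.4 FPKM and Dag1, dystroglycan, at 60.6 and 55.4 FPKM as the 3 highest by the mean of both genotypes, and a median of -0.13. The other integrin ligands gave 0 calls and 0 unadjusted p under 0.05 among 16, and a median of -0.13, with Mfge8 at 100.2 and 102.9 FPKM, Emilin1 at 39.6 and 37.6 FPKM and Cyr61 at 25.6 and 34.1 FPKM as the 3 highest by that mean. All 9 endothelial markers were below 0, with a median of -0.18, and their part in these lists was not tested.

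The precision of the authors' test limits what can be said of the members that did not pass. The 27 members with at least 1 FPKM had a median implied SE of 0.325 and a median absolute log2 fold change of 0.15. Over the 12150 entries under the same filter the median implied SE was 0.317 and the median absolute log2 fold change 0.086. For 21 of the 27 members the 95% interval lay within a 2-fold change in either direction. Each of those 21 intervals also includes 0, so a smaller difference in these members was neither shown nor excluded.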

How the data were processed

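A single Cuffdiff table of 23290 entries was used, and it has 0 columns for single hearts. Its FPKM columns were made by the authors, who pooled the 3 hearts of a genotype into 1 value per the file headers. The log2 fold change, test statistic, p-value and q-value were deposited by the authors beside them. The submitters' processing notes name Cufflinks 2.1.1 with Cuffdiff, TopHat2 2.0.8 with Bowtie2 2.1.0.0, and the mm10 build. Library normalization was not given in the sources used here, and FPKM carries no read count, so depth is unknown.

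RefSeq identifiers were matched to symbols with a RefSeq gene table of GRCm38.p6 and GENCODE M21. Each deposited p-value equals, within 2.82e-06, the two-sided normal probability of its test statistic, so the SE is the absolute log2 fold change over that of the statistic. This step was run on simulated data drawn with those same SEs. That run checks the arithmetic only and cannot show whether the implied SE is right. Cuffdiff's q under 0.05 over 15387 tested entries was the threshold. Loci of 6 members (Itga1, Itga4, Itga7, Itga8, Itgb4 and Nid2) also hold another entry, and overlapping genes may share reads.

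The members and lists were chosen with earlier results of these data known. All members are reported. From each other list the text names genes with an unadjusted p under 0.05 or, if none, the 3 of highest FPKM, of which 1 is not reported here; the blood integrins, Mettl7b and its neighbours and the markers named were chosen after their values were seen. Alternatives covered the q threshold, adjustment, FPKM filters, a minimum fold, pseudocounts of 0.1 and 1 FPKM, and centring. Python 3.11.15, numpy 2.4.6, pandas 2.3.3, scipy 1.17.1 and matplotlib 3.10.9 were used.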

Additional observations from a re-analysis of the deposited data

How the results depend on the processing

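The single call, Itga7, held at q thresholds of 0.01 and 0.1, with a minimum 1.5-fold change, and when p-values were adjusted only over entries with at least 1 FPKM. The count of members at least 1.5-fold higher was 2 and became 1 with a pseudocount of 1 FPKM, when Itgb8 dropped out by the construction of that scale. The median log2 fold change of members, 0.03, ranged from 0.01 (at least 5 FPKM) to 0.05 (centred). Of 93 alternative values of single members, 92 stayed within the 95% interval of the deposited value and 0 changed sign. The exception was Itga7 at 1.88 with a pseudocount of 1 FPKM. A pseudocount added to both values cannot change a sign, and centring only subtracts the median of -0.02 from every member. These counts therefore say little about how firm the values are. For the single call, Itga7 had q = 6.17e-10 and the lowest unadjusted p of the authors' test among the others was 0.0727. The q thresholds thus had little room to change it. No member had a second entry to try. No paired analysis was possible because the table holds no columns per heart, and leaving out a replicate could not be run for the same reason. FPKM under 1 in both genotypes leaves Itga2, Itga11, Itgb4, Itgb6 and Lama3 poorly measured.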
